A study of Arabidopsis thaliana with 30 samples.

Results

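In Arabidopsis thaliana seedlings moved into strong light, 106 genes had more RNA in the flu mutant than in wild type, although wild type itself changed little at these genes. A gene was included if its probe set was matched to that gene alone, if the wild type mean moved by less than 0.5 log2 units between 0 h and 3 h of high light, and if the flu mean at 3 h lay at least 1.25 log2 units above the wild type mean at 3 h. Of 13513 probe sets matched to 1 gene, 8645 met the condition on wild type and 114 of these met the condition on flu. In the end 106 genes were kept, out of the 13350 genes that had a probe set matched to them alone. The other 8 probe sets were left out by name under the rule, among them the defence gene THI2.1 and the glutathione transferase gene GSTU22. Only 9 of the 8645 probe sets lay as far in the opposite direction, at least 1.25 log2 units lower in flu. The differences that chose the genes are given below as descriptions, with standard errors (SE) but no test. Each SE here and below rests on the gene's spread pooled over all groups, not only on the arrays compared. For genes whose flu arrays differed more than those of other groups, it understates the spread in flu.

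The FLU protein restrains chlorophyll synthesis in the dark. A flu mutant kept in darkness accumulates the chlorophyll precursor protochlorophyllide, which produces singlet oxygen in the chloroplast once the light returns. Singlet oxygen is a reactive form of oxygen that also forms at photosystem II in strong light, and signals that start from it reach nuclear genes for defence, detoxification and hormone synthesis. MBS1 is a small zinc finger protein known to act in the response to singlet oxygen, and MBS2 is its close relative.

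The arrays held 5 lines at 2 times, with 3 biological replicates in each of 10 groups. The lines were Col-0 wild type (WT), the flu mutant, the mutant mbs1-1, RNAi-MBS2/mbs1-1, in which an RNA interference construct against MBS2 was placed in mbs1-1, and 35S:MBS1, which expresses MBS1 from the constitutive 35S promoter. The lines mbs1-1 and RNAi-MBS2/mbs1-1 are called the loss lines below, and these 2 with 35S:MBS1 the MBS1 lines. RNA came from seedlings 12 days old, taken whole but with the roots removed, after 7 days in dim continuous light (10 µE per square metre per second). Plants of the 3 h groups spent 3 h in the dark and then 3 h at 1000 µE, and the 0 h groups had no high light. The labels do not say if plants harvested at 0 h had been in darkness. Every 3 h value therefore holds the dark period and the high light together, and in flu the dark period is the one in which the precursor accumulates. As MBS1, MBS2 and FLU had no probe set matched to them alone, the genotypes could not be checked from the RNA of the altered genes. The tissue was checked with its markers as far as a probe set was matched to them alone. RCA, the activase of the carbon-fixing enzyme Rubisco, was between 11.87 and 12.91 in all 30 arrays, and the root hair gene EXPA7 was between 2.63 and 3.32. In these whole-shoot samples fewer cells of a type and less RNA per cell cannot be told apart.

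Several arrays stood apart at these genes. The median over the 106 genes was 7.22, 7.31 and 8.02 log2 units in the 3 flu arrays at 3 h, so replicate 3 was the highest. It was 5.36, 5.58 and 5.30 in WT at 3 h and 5.61, 5.21 and 5.35 in WT at 0 h. In flu at 0 h it was 5.80, 6.0 and 5.43, and in the 18 arrays of the 3 MBS1 lines it ran from 5.05 to 5.58. The WT and flu groups therefore did not overlap at 3 h in this median, whereas all other groups lay within 1 log2 unit of each other. Across all probe sets, 28 arrays had means between 6.70 and 6.78, and the other 2 were brighter, mbs1-1 at 3 h replicate 1 at 6.96 and WT at 0 h replicate 1 at 6.88.

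**Figure D1:**
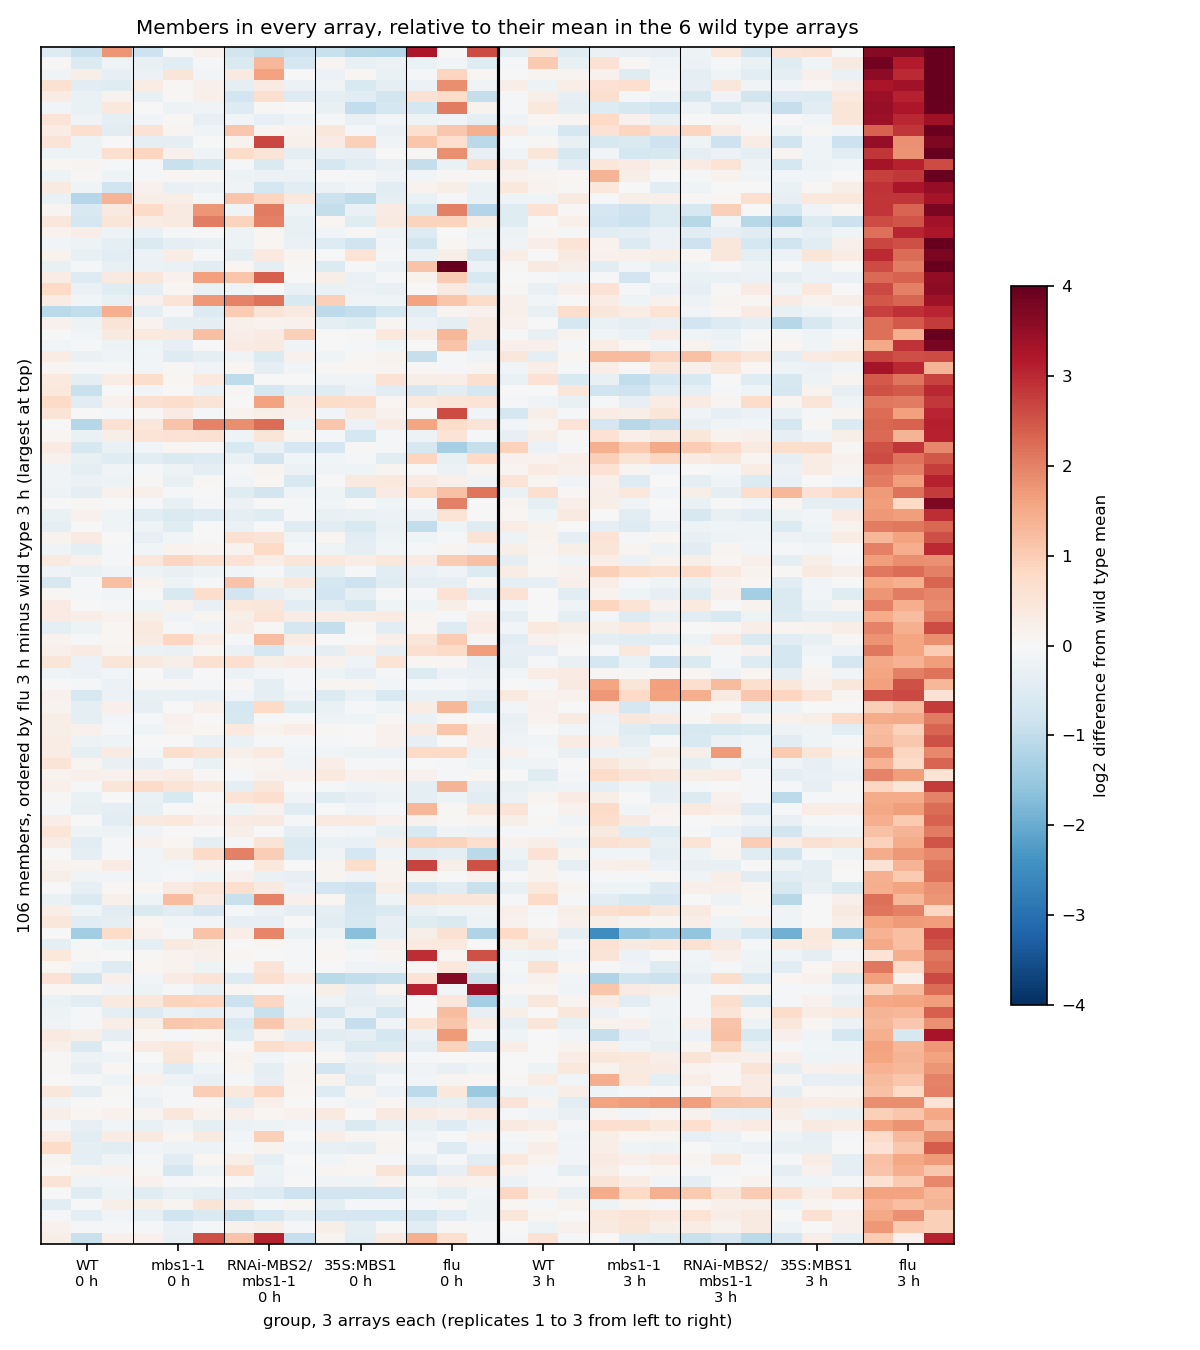
Each row is one of the 106 genes, ordered from the largest flu minus WT difference at 3 h at the top, and each column is 1 of 30 arrays, in 10 groups of 3. Colour gives the log2 level minus the gene's mean in the 6 WT arrays, from blue (4 lower) to red (4 higher); the red block on the right is flu at 3 h, and scattered red cells mark single flu and MBS1-line arrays at 0 h.

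In flu at 3 h the genes lay a median of 1.79 log2 units above WT, with a range from 1.26 to 4.21, while the median over all probe sets was -0.05. The difference was at least 2 log2 units for 42 genes and at least 3 for 14. Since the rule set the lower end of this range, the share of all probe sets with a difference of at least 1.25, which was 2.55%, is given only for scale. All 3 flu arrays at 3 h were above all 3 WT arrays at 3 h for 103 genes, against 14.6% of all probe sets, and above all 27 other arrays of the series for 74, against 4.2%. These groups are the ones the rule used, so the counts describe the choice of genes. The 3 genes with overlap were AT4G16260, AT4G22610 and AT2G23270. Flu at 3 h was the highest of the 10 group means for 102 genes, against 13.6% of all probe sets. The exceptions were AT3G27473, AT2G15510 and AT3G09380, highest in flu at 0 h, and ARLA1B, highest in mbs1-1 at 3 h.

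From 0 h to 3 h in flu the genes moved by a median of 1.88 log2 units, from -0.67 to 4.30. This change was above 0 for 103 genes, while its median over all probe sets was -0.05. It was at least 1.25 for 87 genes, a size that 8.2% of all probe sets reached. At 0 h the flu and WT levels were close, with a median difference of 0.09, and 6 genes were at least 1.25 higher in flu, against 0.198% of all probe sets. Compared with the mean of the 3 MBS1 lines at 3 h, flu was higher by a median of 1.86 (0.33 to 4.12), and by at least 1.25 for 95 genes, against 2.84% of all probe sets. These comparisons share the flu arrays at 3 h or the WT arrays with the rule and are not independent of it.

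The genes were of low to moderate level in WT. Their WT means at 3 h ran from 2.69 to 10.52 with a median of 5.40, and 47 of the 106 were under 5, where array signals flatten towards the background and a difference understates the change of the RNA. In flu at 3 h the means ran from 4.26 to 12.71 with a median of 7.52. Averaged over all 30 arrays, the brightest were AT4G01870 at 10.49 and AT4G09150 at 10.48, and the dimmest were AT3G28600 at 2.93 and AT2G32140 at 2.99. Detection calls were not used here, so whether a dim gene was above background in WT is not known.

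The 3 flu arrays at 3 h differed more at these genes than the WT arrays did. The median SD over 3 arrays was 0.58 in flu and 0.24 in WT at 3 h. Replicate 3 was the highest of the 3 flu arrays for 82 genes, a count not made over all probe sets. It exceeded the mean of the other 2 flu arrays by a median of 0.77, against -0.01 over all probe sets. For 43 genes, or 40.6%, it was at least 1 log2 unit above that mean, against 1.34% of all probe sets. AT4G22610 was 5.27, 3.17 and 7.11 in the flu replicates, AT2G23270 was 6.37, 5.54 and 8.42, and AT1G68630 was 4.90, 4.02 and 6.97. For these genes most of the flu difference was in replicate 3. The opposite held for 5 genes, at least 1 log2 unit lower in replicate 3: AT2G27270 (5.75, 5.82 and 3.77), AT1G05330 (8.43, 8.14 and 6.47), ARLA1B (8.54, 8.53 and 7.22), AT1G24600 (9.74, 9.43 and 8.29) and AT1G49450 (8.06, 7.94 and 6.73). Without replicate 3 the median difference from WT was 1.67, 79 of the 106 genes still reached 1.25, and the lowest was 0.44. The rule used the mean of these 3 flu arrays, so a gene raised mainly in 1 of them could enter the list. The share of 40.6% and the flu SD therefore also describe the choice of genes. The genes split by these patterns were picked from the same arrays.

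Described by role, the genes covered secretion and stress proteins, hydrolases, detoxification, defence, cell wall and signalling. A textbook role was assigned to 67 genes, and 39 were left without one. The role groups were formed after the list of genes was known.

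**Figure D2:**
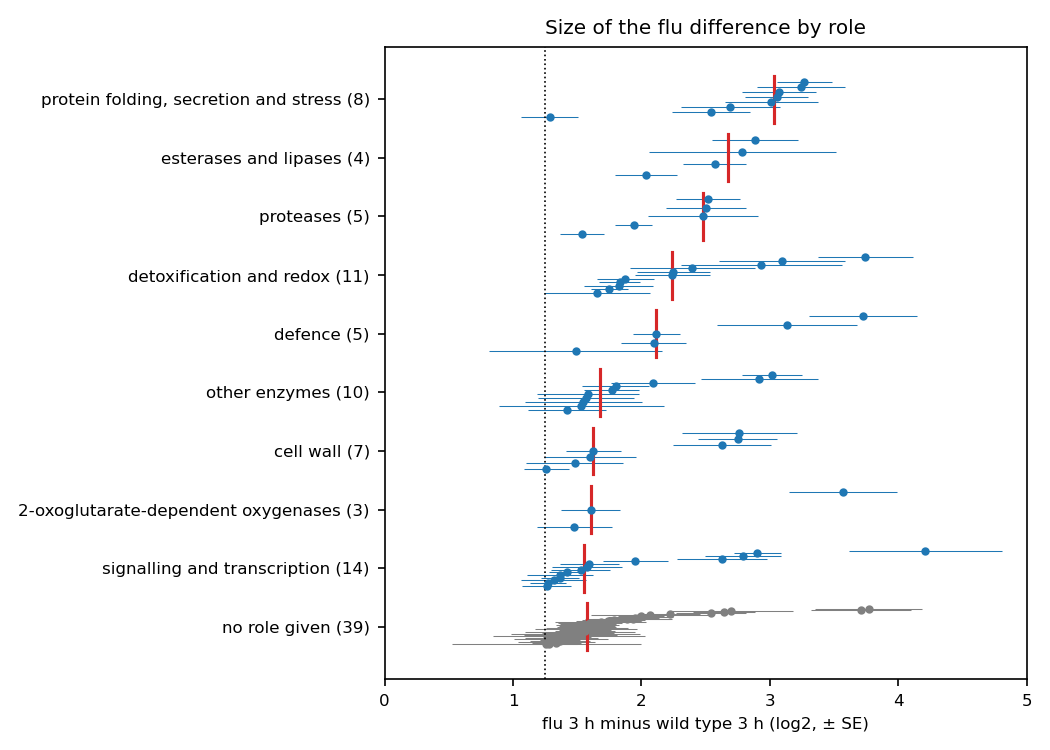
Each point is one of the 106 genes, placed by its flu minus WT difference at 3 h in log2 units with its SE, within 10 role groups whose sizes are in brackets. Red bars are group medians, which run from 1.55 for signalling and transcription to 3.03 for protein folding, secretion and stress, and the dotted line is the 1.25 limit of the rule.

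Proteins of folding, secretion and stress formed the group with the highest median, 3.03 over 8 genes (1.29 to 3.27). AT1G18830 encodes a SEC31 subunit of the coat of vesicles that leave the endoplasmic reticulum. It was 4.95, 4.50 and 4.01 in WT and 7.04, 7.53 and 8.62 in flu at 3 h. The difference was 3.24 ± 0.34 (n = 3 per group, SE pooled over all groups). These arrays alone had SDs of 0.47 in WT and 0.81 in flu. AT3G28600, an AAA-type ATPase, was near the bottom of the scale in WT at 2.76, 2.71 and 2.67 and reached 5.34, 5.42 and 6.54 in flu (3.05 ± 0.25). Both genes had all flu arrays above all WT arrays. AT2G33690, a late embryogenesis abundant protein of the kind that protects dehydrated cells, went from 2.70, 2.96 and 2.98 in WT to 6.29, 5.88 and 6.27 in flu, a 9.64-fold difference. AT1G05340, a small cysteine-rich stress protein anchored in membranes, was already well expressed in WT (8.73, 8.28 and 7.95) and was 11.70, 11.47 and 10.99 in flu. The remaining 4 genes of the group included 2 with high levels in both lines. The small heat shock protein gene AT1G54050 was 9.52, 9.01 and 10.00 in WT and 12.04, 12.22 and 12.35 in flu. AT5G25450, a small subunit of respiratory complex III in mitochondria, was 8.41, 8.44 and 8.97 against 11.46, 11.46 and 11.93. This gene was placed in the group although its named role is respiratory, and its difference of 3.01 is 1 of the values that set the group median.

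The 4 esterases and lipases had a median of 2.68 (2.03 to 2.88). Among them AT1G73480, a hydrolase of the monoacylglycerol lipase type, gave nearly the same value in each flu array (9.97, 9.85 and 9.87) against 7.73, 6.91 and 7.34 in WT. The carboxylesterase AT1G68620 was 5.41, 5.81 and 6.08 in WT and 8.21, 8.12 and 9.62 in flu. The 5 proteases had a median of 2.48 (1.54 to 2.52). The subtilase SBT3.3, a secreted serine protease known in Arabidopsis for priming of immunity, was 3.81, 3.80 and 4.29 in WT and 6.35, 6.27 and 6.84 in flu. The adjacent subtilase gene AT1G32950 was 3.82, 3.61 and 3.82 against 5.21, 5.35 and 5.31. Hybridisation of RNA from one to the probes of the other was not tested.

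The 11 genes of detoxification and redox chemistry had a median of 2.24 (1.65 to 3.74). AT1G76470, a reductase that uses NAD(P), was 3.12, 3.19 and 3.21 in WT and 6.66, 6.08 and 8.02 in flu, a 13.4-fold difference. AT2G35730, a protein with a heavy-metal-associated domain, was 4.02, 4.64 and 3.52 against 7.01, 5.93 and 8.51. In both, the lowest flu array lay more than 1 log2 unit above the highest WT array. The efflux transporters of the MATE type, which move organic compounds out of the cytosol, were represented by AT2G04050 (6.48, 6.71 and 7.14 in WT, 8.89, 8.94 and 9.68 in flu) and AT1G71140 (6.50, 7.07 and 6.90 against 9.11, 8.19 and 9.91). The aldehyde reductase AT3G04000, which removes reactive aldehydes in chloroplasts, was 8.30, 8.41 and 8.23 against 10.43, 9.86 and 10.28.

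The 5 defence genes had a median of 2.12 (1.49 to 3.73). AT3G48450, which carries the NOI domain of the immune regulator RIN4, was 5.52, 5.06 and 5.51 in WT and 8.51, 8.62 and 10.13 in flu, a 13.2-fold difference. LCR67, also called PDF1.1, encodes a plant defensin, a small antifungal peptide. It was 4.87, 5.0 and 4.65 in WT and 8.47, 6.77 and 8.68 in flu, so its flu arrays were spread but all above WT. AT4G16260, of the beta-glucanase family whose members cut fungal cell walls, was 5.01, 5.29 and 4.99 in WT and 6.75, 5.28 and 7.73 in flu, and these groups overlapped.

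Of the 3 oxygenases that depend on 2-oxoglutarate, AT5G05600 stood out with a difference of 3.57 ± 0.42, against 1.60 and 1.48 for the other 2. It hydroxylates jasmonic acid and thereby lowers the amount of this wound and defence hormone. Its levels were 6.67, 7.17 and 6.35 in WT and 10.22, 9.98 and 10.69 in flu. The 7 cell wall genes had a median of 1.63 (1.26 to 2.76). They included the pectin acetylesterase AT3G09405 (8.16, 8.12 and 8.07 against 10.42, 10.52 and 11.70), the blue copper protein AT2G15780 and BGLU45, a beta-glucosidase that releases lignin precursors. BGLU45 was 3.55, 3.3 and 3.75 in WT and 5.82, 5.07 and 7.59 in flu.

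Signalling and transcription held the single largest difference but a low median, 1.55 over 14 genes (1.26 to 4.21). AT5G24240, of the phosphatidylinositol kinase family, was 5.09, 5.95 and 4.99 in WT and 9.12, 9.15 and 10.39 in flu at 3 h, an 18.5-fold difference (4.21 ± 0.60). It was also high in some arrays at 0 h. The trihelix transcription factor AT5G01380 was 3.59, 3.88 and 3.75 against 6.02, 6.87 and 7.05, and the VQ motif protein AT4G15120, of a family that binds WRKY factors, was 4.03, 3.78 and 4.14 against 6.76, 6.01 and 7.55. The calmodulin-like calcium sensor AT1G76640 was 3.70, 3.69 and 3.43 against 5.01, 6.38 and 7.30. Other proteins that move calcium were near the lower limit of the rule, the OSCA-type channel AT1G11960 at 1.37 ± 0.15 and the cation/calcium exchanger AT5G17850 at 1.26 ± 0.19.

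The 10 other enzymes had a median of 1.68 (1.42 to 3.02), led by AT5G59490, a hydrolase of the haloacid dehalogenase type. It was 4.25, 3.95 and 3.88 in WT and 6.72, 7.08 and 7.33 in flu. The 39 genes without a role had a median of 1.57 (1.26 to 3.77). The highest of them were AT3G43250 (3.28, 4.36 and 3.00 in WT, 7.17, 6.48 and 8.31 in flu) and AT2G47950 (5.46, 5.76 and 5.21 against 8.95, 8.59 and 10.01).

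The limits of the rule cut through a continuous range. Just inside the limit on flu were AT2G23270 at 1.259 and AT3G43270 at 1.261, and just outside were AT3G13610 at 1.248 and AT1G19025 at 1.244. Just inside the limit on WT were AT3G51660, whose WT level fell by 0.499, and AT5G60800, which fell by 0.497. Just outside were AT1G69610 at 0.503 and AT3G60540 at 0.504.

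By the gene order of the RefSeq table, 12 of 105 placed genes lay within 3 genes of another, in 6 pairs. How often other lists of this size hold such pairs was not counted, so this is no sign of clustering. Directly adjacent were AT1G05330 with AT1G05340, AT1G32950 with SBT3.3, and AT1G68620 with AT1G68630. AT1G05330 and AT1G05340 were both lowest in replicate 3 of the flu arrays at 3 h, and AT1G68620 and AT1G68630 were both highest there. Chromosomes 1 to 5 held 31, 18, 22, 10 and 24 of the genes, out of 3218, 1869, 2512, 1761 and 2864 with a probe set matched to them alone.

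Whether these genes respond to high light in the MBS1 lines was tested within each line, on arrays that the rule did not use. The spread in the test was estimated over all 10 groups, however, so that of flu at 3 h (median SD 0.58) enters it and can lower the counts. A fit of the compared arrays alone passed more of the genes in mbs1-1 and in 35S:MBS1, and the background was not counted in that fit. In the main fit most genes did not pass the test. In mbs1-1, 15 genes were higher and 10 lower at 3 h than at 0 h (limma, adjusted p under 0.05), together 23.6%, against 44.6% of all probe sets, 25.9% higher and 18.8% lower. In RNAi-MBS2/mbs1-1, 10 were higher and 11 lower, together 19.8%, against 45.6% of all probe sets, 21.2% higher and 24.5% lower. In 35S:MBS1, 12 were higher and 4 lower, together 15.1%, against 47% of all probe sets, 22% higher and 25% lower. Probe sets with an equally small WT change are the closer comparison, because the rule kept only those, and among 8539 of them outside the list the shares were 20.7%, 20.6% and 19.7%. By direction the shares differed more from this background. In mbs1-1, 14.2% of the 106 genes were higher against 15.9%, and 9.43% lower against 4.77%. With the RNAi construct added, 9.43% were higher against 7.96% and 10.4% lower against 12.7%. In 35S:MBS1, 11.3% were higher against 8.1% and 3.77% lower against 11.6%. These differences between the list and its background were not tested. The medians of the changes were 0.11, -0.04 and 0.06 for the genes, against 0.10, -0.10 and -0.08 over all probe sets. No gene rose in 1 line and fell in another, a pattern that only 0.273% of all probe sets showed. The test was passed in none of the 3 lines by 68 genes, or 64.2%, against 38.7% of all probe sets. In all 3 lines 6 genes rose (5.66% against 17.1%) and 1 fell (0.943% against 15.2%). These counts over the 3 lines were set only against all probe sets, not against the closer background. Because the rule kept genes with a small WT change, they cannot be read as a lack of response particular to the list.

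The 6 genes that rose in every MBS1 line included 2 of calcium transport. AT5G17850, the exchanger, rose by 1.01 ± 0.19, 1.07 ± 0.19 and 0.94 ± 0.19 in the lines mbs1-1, RNAi-MBS2/mbs1-1 and, last, 35S:MBS1. AT1G11960, the channel, in the same order rose by 0.84, 0.61 and 0.63. The others were the OTU-type cysteine protease AT5G04250, which removes ubiquitin (0.99, 0.61 and 0.50), the zinc-binding dehydrogenase AT5G16960 (1.32, 1.23 and 0.71), AT2G27270 (1.68, 1.18 and 0.96) and AT5G60610. AT5G60610 was dim at 0 h, at 2.20, 2.22 and 2.19 in 35S:MBS1, and rose there to 3.61, 3.23 and 3.62 at 3 h. In mbs1-1 it went from 2.47, 2.66 and 2.58 to 4.45, 3.75 and 4.38. With the RNAi construct it went from 2.53, 2.46 and 2.14 to 4.01, 3.44 and 3.98. The 0 h and 3 h arrays did not overlap in any of the 3 lines, and the changes were 1.63 ± 0.21 in mbs1-1, 1.43 ± 0.21 with the RNAi construct and 1.28 ± 0.21 for 35S:MBS1 (limma adjusted p = 5.46e-07, 3.75e-06 and 1.57e-05). The 1 gene that fell in every line was AT3G51660, a tautomerase of the macrophage migration inhibitory factor type, by 0.99, 0.80 and 0.67 log2 units. It sat at the limit of the rule on WT, where it had fallen by 0.50. Its call in 35S:MBS1 was lost without 0 h replicate 3, 3 h replicate 1 or 3 h replicate 3 (limma adjusted p up to 0.0919).

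**Figure D3:**
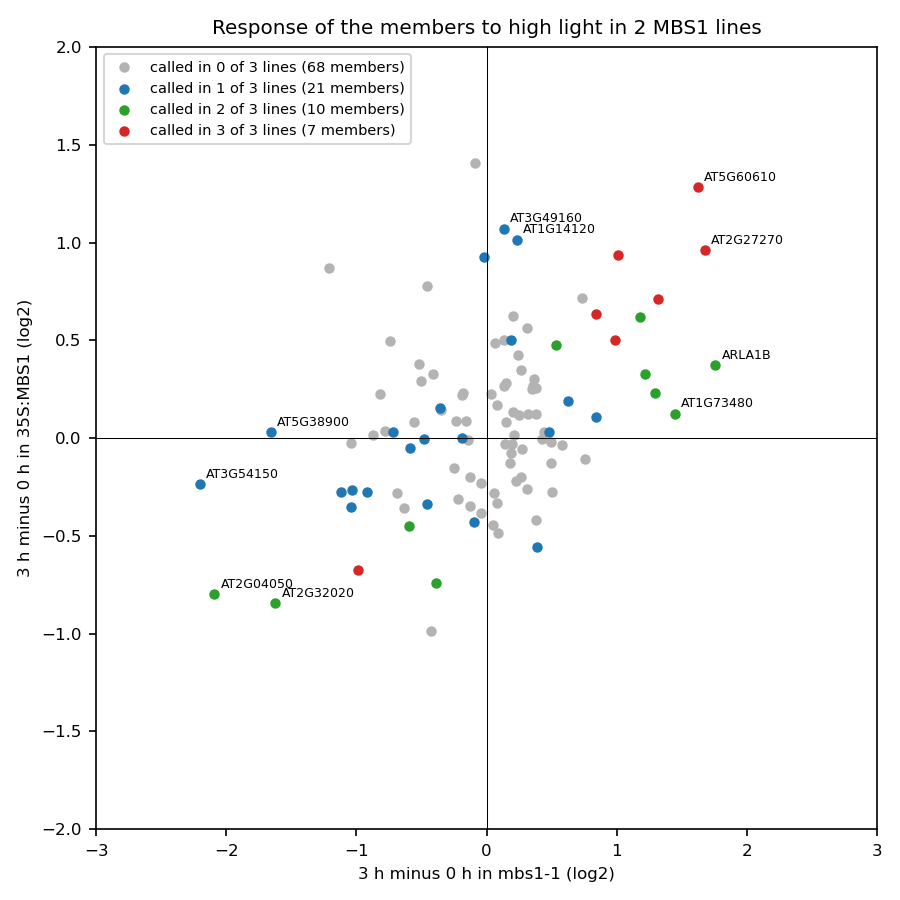
Each point is one of the 106 genes, with its change from 0 h to 3 h in mbs1-1 on the horizontal axis and in 35S:MBS1 on the vertical axis, both in log2 units. Colour gives the number of MBS1 lines in which the change passed the test (68 genes in none, 21 in 1, 10 in 2 and 7 in all 3); ARLA1B and AT1G73480 lie far right of the vertical axis but near the horizontal one.

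Among the genes that passed the test, the largest rises in mbs1-1 were those of ARLA1B (1.76 ± 0.26, limma adjusted p = 2.83e-06), a small GTPase related to ADP-ribosylation factors, AT2G27270 and AT5G60610. In RNAi-MBS2/mbs1-1 they were AT5G60610, ARLA1B (1.38 ± 0.26) and AT5G16960. In 35S:MBS1 they were AT5G60610, the pyruvate kinase family gene AT3G49160 (1.07 ± 0.32, adjusted p = 0.00813) and the oxygenase AT1G14120 (1.01 ± 0.29, adjusted p = 0.00543). AT3G49160 was 4.65, 4.16 and 5.16 at 0 h and 6.15, 5.38 and 5.66 at 3 h in 35S:MBS1, and AT1G14120 was 8.02, 8.48 and 8.01 against 9.44, 9.0 and 9.11. The call of AT3G49160 was lost without 0 h replicate 2 or 3 h replicate 1 (limma adjusted p up to 0.064). AT5G24240 had the highest change of the 106 genes in 35S:MBS1, 1.41 ± 0.60, but did not pass (limma adjusted p = 0.0553). The rises of AT3G49160 and AT1G14120 were smaller in the 2 loss lines, 0.13 and 0.23 in mbs1-1 and 0.65 and 0.63 with the RNAi construct, where they did not pass the test. The difference between the lines did not pass the test either for any gene of the list, as given below.

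Of the genes that fell in the loss lines, some were high in single arrays at 0 h and others were even. The 3 arrays at 0 h spanned at least 1 log2 unit for 4 of the 10 genes that fell in mbs1-1 and for 7 of the 11 in RNAi-MBS2/mbs1-1, against 1.5% and 3.4% of all probe sets that fell there. Among the even ones in mbs1-1 was AT1G13340, at 6.86, 6.23 and 6.55 before and 5.88, 5.20 and 5.45 after. The MATE transporter AT2G04050 was 7.04, 7.73 and 8.57 at 0 h and 5.90, 5.47 and 5.68 at 3 h in mbs1-1, a fall by 2.09 ± 0.49 log2 units (limma adjusted p = 0.000853). In RNAi-MBS2/mbs1-1 it was 8.44, 8.81 and 6.40 against 6.28, 6.46 and 6.49, a fall by 1.47 ± 0.49 (adjusted p = 0.0148) with overlap of the groups. The acetyltransferase AT2G32020 fell by 1.62 ± 0.46 and 1.63 ± 0.46, from 7.55, 7.62 and 9.30 to 6.50, 6.39 and 6.70 in mbs1-1. The methyltransferase AT3G54150 fell by 2.20 ± 0.64 in mbs1-1 (adjusted p = 0.00629), from 5.84, 5.60 and 6.81 to 3.17, 4.16 and 4.30, and AT5G38900, an oxidoreductase with a thioredoxin fold, fell by 1.66 ± 0.63 (adjusted p = 0.0333). In RNAi-MBS2/mbs1-1 the largest fall, 1.98 ± 0.74 (adjusted p = 0.03), was that of AT2G23270, at 6.49, 8.44 and 4.44 before and 4.46, 4.68 and 4.28 after. Among the 4 genes that fell in 35S:MBS1, the largest falls were those of AT5G60800, a heavy-metal-associated domain protein (0.74 ± 0.16), AT3G51660, and AT1G24600 (0.56 ± 0.22). The call of AT1G24600 was lost whichever of the 6 arrays of 35S:MBS1 was left out (limma adjusted p from 0.0531 to 0.118).

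In some of these 0 h arrays a set of the genes was raised together. Relative to their mean in the 6 WT arrays, 9 genes were at least 1 log2 unit higher in mbs1-1 at 0 h replicate 3 and 14 in RNAi-MBS2/mbs1-1 at 0 h replicate 2, or 8.49% and 13.2%, against 1.71% and 1.96% of all probe sets. Of these genes 8 were in both, which is 88.9% of the first set and 57.1% of the second. This overlap was not counted over all probe sets, and the 6 WT arrays taken as reference are ones the rule used. The 8 were AT2G04050, AT2G20720, AT2G23270, AT2G32020, AT3G09405, AT3G26440, AT3G54150 and AT5G38900, singled out after their values were seen. In the other 0 h arrays of these lines the count was 0 and 3 for mbs1-1 and 9 and 0 for RNAi-MBS2/mbs1-1. The 9 were in replicate 1, where some of the 8 genes were raised too: AT2G20720 by 2.00, AT2G04050 by 1.86, AT2G23270 by 1.14 and AT3G09405 by 1.10. The rest of the 8 were at 0.88 (AT2G32020), 0.28 (AT3G54150), -0.18 (AT5G38900) and -0.60 (AT3G26440) there. Without mbs1-1 at 0 h replicate 3, 6 of the 10 genes that fell in mbs1-1 passed the test. Without RNAi-MBS2/mbs1-1 at 0 h replicate 2, 4 of the 11 in that line did. AT2G04050 and AT3G54150 passed in mbs1-1 whichever array was left out (limma adjusted p up to 0.011 and 0.0426). Over all alternatives AT3G54150 reached 0.048. AT5G38900 did not pass when replicate 1 or replicate 3 at 0 h or any replicate at 3 h was left out. It also did not pass without the 2 brighter arrays or with a trended variance prior (limma adjusted p up to 0.159). In RNAi-MBS2/mbs1-1, AT2G23270, AT2G04050 and AT2G32020 did not pass without replicate 2 at 0 h. AT2G04050 was also lost without replicate 1 at 0 h and in a fit of the compared arrays alone (limma adjusted p up to 0.12). AT2G23270 was also lost in that fit, with a trended variance prior, and without replicate 1 at 0 h or replicate 1 or 3 at 3 h (limma adjusted p up to 0.286).

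Loss of MBS1 function was compared with its overexpression through the mean of mbs1-1 and RNAi-MBS2/mbs1-1 minus 35S:MBS1. At 3 h 1 gene of the 106, or 0.943%, passed the test, against 0.0572% of all probe sets in either direction and 0.022% higher. An unadjusted p under 0.05 was found for 18, or 17%, against 6.63% of all probe sets. This was ARLA1B, at 7.04, 6.97 and 6.95 in 35S:MBS1. It was 8.28, 8.34 and 8.41 in mbs1-1 and 8.32, 7.82 and 7.76 with the RNAi construct added. All 6 arrays of the loss lines lay above all 3 of 35S:MBS1, by a mean of 1.17 ± 0.22 (limma adjusted p = 0.0359). In WT ARLA1B was 7.18, 6.79 and 6.21, and in flu 8.54, 8.53 and 7.22, so the loss lines lay above every WT array and under the 2 higher flu arrays, and 35S:MBS1 lay within the range of WT. At 0 h the 3 lines were at 6.58, 6.58 and 6.61 on average. The difference in the change over time was 1.2 ± 0.32 (adjusted p = 0.42) and did not pass. The call at 3 h was lost without the 2 brighter arrays and also when any array of mbs1-1 or 35S:MBS1, or replicate 1 of RNAi-MBS2/mbs1-1, was left out, with an adjusted p from 0.00856 to 0.205 over the alternatives.

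AT1G73480, the monoacylglycerol lipase type hydrolase, had a similar order of levels without passing this test. At 3 h it was 6.93, 7.60 and 7.69 in 35S:MBS1, 8.53, 8.53 and 8.14 in mbs1-1 and 8.44, 8.01 and 7.76 with the RNAi construct added, a difference of 0.83 ± 0.21 (limma adjusted p = 0.199). Its rise from 0 h passed the test in mbs1-1 (1.45 ± 0.24, adjusted p = 2.02e-05). It passed too in RNAi-MBS2/mbs1-1 (0.96 ± 0.24, adjusted p = 0.00197), and in 35S:MBS1 the change was 0.12 ± 0.24. It was described here after its values were seen.

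**Figure D4:**
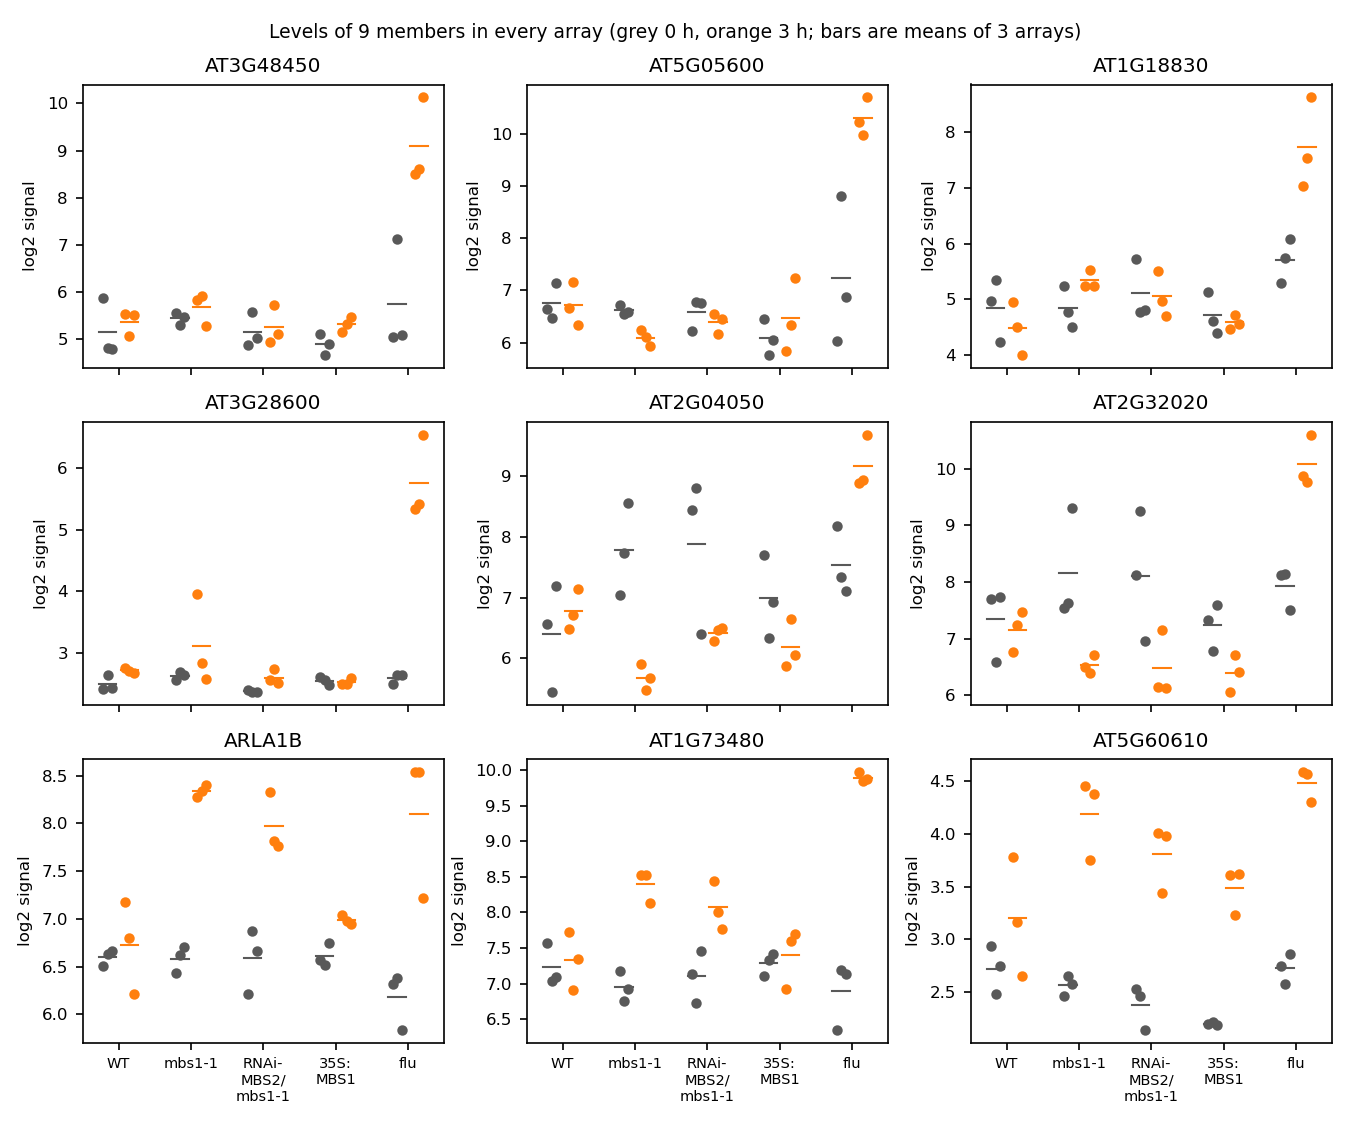
Log2 signal of 9 genes in every array, by line, with 0 h arrays in grey, 3 h arrays in orange and short bars for the means of 3 arrays. AT3G48450, AT5G05600, AT1G18830 and AT3G28600 are high in flu at 3 h, AT2G04050 and AT2G32020 fall in the loss lines from spread 0 h values, and ARLA1B, AT1G73480 and AT5G60610 rise in mbs1-1.

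The other comparisons among the MBS1 lines found no gene of the list by limma. Loss minus overexpression gave 0 genes at 0 h, against 0.0352% of all probe sets (0.0132% higher and 0.022% lower), and 0 in the change over time, against 0.00879%. At an unadjusted p under 0.05 there were 14 genes at 0 h (13.2%, against 7.62% of all probe sets) and 7 in the change over time (6.6%, against 8.11%). RNAi-MBS2/mbs1-1 minus mbs1-1 gave 0 at 3 h, 0 at 0 h and 0 in the change over time, against 0.00879%, 0.0044% and 0% of all probe sets. At an unadjusted p under 0.05 there were 5 genes at 3 h (4.72%, against 10.4%), 6 at 0 h (5.66%, against 8.78%) and 8 in the change over time (7.55%, against 13.6%). With SEs from 0.12 to 1.04 log2 units in these comparisons, differences of this order were not detectable for the more variable genes.

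In flu at 0 h, before high light, 8 of the 106 genes (7.55%) were higher than the mean of the 3 MBS1 lines and 0 were lower, against 1.5% of all probe sets (0.765% higher) and 0.691% of those with an equally small WT change. At an unadjusted p under 0.05 there were 22 genes (20.8%, against 12.5% of all probe sets). This comparison uses no array of the rule, but its SEs are pooled over all groups. They can therefore understate the spread among the flu replicates, which was an SD of 1.73 for AT5G24240. AT5G24240 led with 2.63 ± 0.49 (limma adjusted p = 0.00356), at 8.70, 5.44 and 8.08 in the flu replicates and between 4.33 and 5.63 in the 9 arrays of the MBS1 lines. WT at 0 h was 4.95, 4.59 and 7.25, so 1 WT array was also high. Without that array the WT change of AT5G24240 would exceed the limit of 0.5. AT3G09380 was 6.0, 2.82 and 6.39 in flu (2.21 ± 0.41, adjusted p = 0.00356), AT2G15510 was 5.90, 3.01 and 5.49 (1.80 ± 0.35) and AT3G27473 was 5.60, 3.13 and 5.45 (1.69 ± 0.33). In these 3 genes flu replicate 2 was at the level of the MBS1 lines, which had means between 2.72 and 3.20, and replicates 1 and 3 were more than 2 log2 units above replicate 2. These 3 were also the genes of the list whose flu mean was lower at 3 h than at 0 h. AT5G13880 showed the same order with a smaller step (7.14, 6.0 and 7.09, 0.81 ± 0.19).

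The other 3 genes that passed behaved differently across the flu replicates. AT3G49160, of the pyruvate kinase family, was 5.62, 5.99 and 6.94 (1.56 ± 0.27, limma adjusted p = 0.00152), and ZW9 was 8.19, 8.33 and 9.21 (1.24 ± 0.20, adjusted p = 0.000893). For both, all flu arrays lay above all 9 arrays of the MBS1 lines. AT1G54020, a GDSL-type lipase, was 3.92, 8.09 and 2.56, so its mean difference of 2.31 ± 0.60 (adjusted p = 0.0472) came mostly from replicate 2. Its adjusted p was 0.365 at most over the 19 alternatives and it did not pass in 16 of them. Without flu replicate 1, 2 or 3, the count of genes that passed was 6, 8 and 5, and AT5G24240 did not pass without replicate 1 or replicate 3 (adjusted p up to 0.0529). AT3G09380 did not pass without flu replicate 3 (1.55, limma adjusted p = 0.0819) or in a fit of the compared arrays alone (0.115), and it was 3.33 without flu replicate 2.

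**Figure D5:**
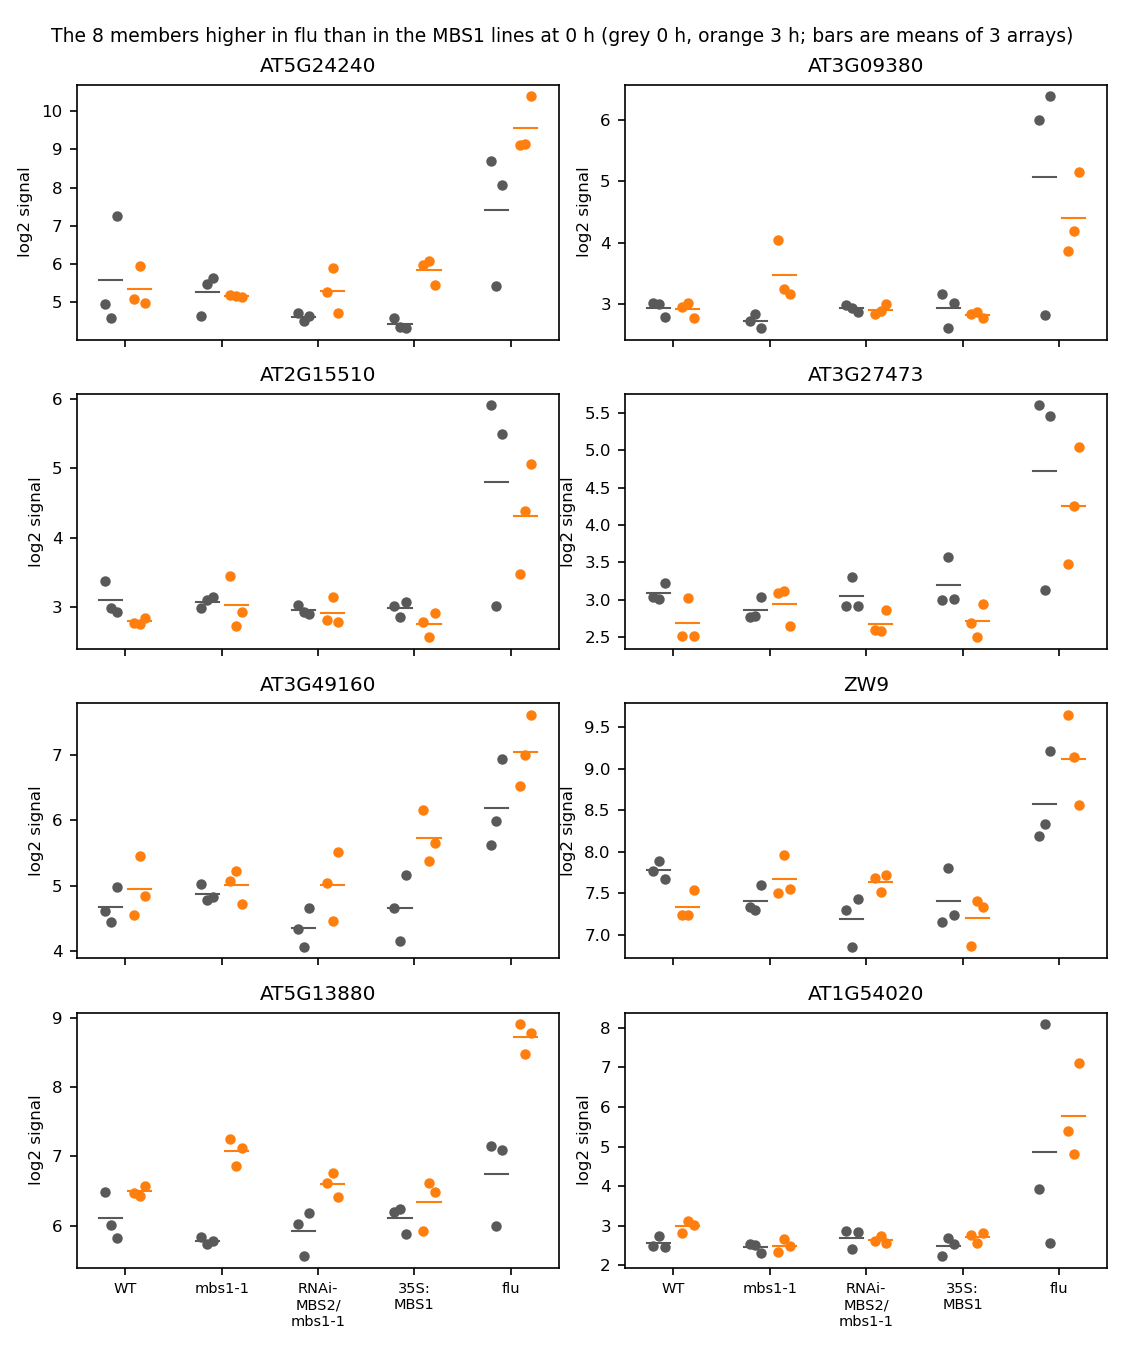
Log2 signal in every array for the 8 genes higher in flu than in the MBS1 lines at 0 h, with 0 h in grey, 3 h in orange and bars for the means of 3 arrays, replicates 1 to 3 from left to right. In AT5G24240, AT3G09380, AT2G15510, AT3G27473 and AT5G13880 the middle grey flu point is low, and in AT1G54020 it is the high one.

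More of the list followed the pattern of AT1G54020 than that of AT3G09380. Flu at 0 h replicate 2 was the highest of the 3 for 60 genes, a count not made over all probe sets. It exceeded the mean of replicates 1 and 3 by a median of 0.20, against -0.05 over all probe sets. It was at least 1 log2 unit above the mean of replicates 1 and 3 for 18 genes, or 17%, against 1.45% of all probe sets, and as far below for 5. Of those 18 genes 15, 83.3%, were also among the 43 genes at least 1 log2 unit higher in flu replicate 3 at 3 h than in the other 2 arrays there, of which they made up 34.9%. Those 43 were 40.6% of the list, and the overlap was not counted over all probe sets. Examples of the 18 were AT5G05600 (6.04, 8.81 and 6.88 at 0 h), AT4G16260 (5.64, 8.78 and 4.25), AT5G38900 (5.96, 8.58 and 5.38) and AT3G48450 (5.03, 7.12 and 5.07). Across the 106 genes the deviation of the one array followed that of the other with Pearson's r = 0.31 and Spearman's rho = 0.35, against 0.22 and 0.09 across all probe sets. These are descriptions across genes of the same arrays, and genes are not independent replicates.

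By the annotation used here, few genes of the related pathways were matched to a probe set of their own, and none of those belonged to the list. This annotation gave no gene to 8730 probe sets. Genes called measured below are the matched ones, and whether other probe sets cover the rest was not checked. Of 27 jasmonate genes 3 were measured, with a median flu minus WT difference at 3 h of 1.09: OPCL1, an enzyme of jasmonate synthesis, and the defence peptides PDF1.2 and THI2.1. THI2.1 met both limits of the rule and was left out only by name, with a flu minus WT difference of 4.06 at 3 h and 3.87 at 0 h and a WT change of 0.09. PDF1.2 was 0.53 higher in flu at 3 h and 1.73 higher at 0 h, and neither peptide gene passed the test in an MBS1 line. OPCL1 rose in WT by 1.16 and rose in RNAi-MBS2/mbs1-1 (0.67, limma adjusted p = 0.00525) and 35S:MBS1 (1.19, adjusted p = 9.18e-06). Of 17 ethylene genes 1 was measured, the transcription factor EIN3, at 0.50 for flu minus WT, and it fell in all 3 MBS1 lines by 1.23 to 1.36. Tryptophan synthesis had 1 of 8 (AT2G04400, 0.79, higher in mbs1-1 and 35S:MBS1), salicylic acid and pathogen defence 1 of 13 (SAG101, 0.72, lower in both loss lines), glutathione and electrophile detoxification 1 of 14 (the glutathione reductase GR1, 0.46, higher in all 3 lines) and reactive oxygen 1 of 13 (the zinc finger factor STZ, 0.43, higher in all 3 lines). None of 5 xenobiotic transport genes was measured.

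Of 5 singlet oxygen markers 4 were measured, with a median flu minus WT difference of 1.53. CML37 and CML38, calmodulin-like proteins, were 3.10 and 1.90 higher in flu at 3 h, and their WT levels moved by 2.24 and 0.61, beyond the limit of the rule. AT5G64870 was 0.84 higher in flu with a WT change of 1.04. The ATPase gene AT3G28580 came closest to the list, with a WT change of 0.01 and a flu difference of 1.16, under the limit of 1.25. CML37 and AT5G64870 rose in all 3 MBS1 lines, and CML38 and AT3G28580 passed the test in none.

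Some markers of the tissue and of RNA quality differed between flu and WT at 3 h, and others overlapped. RCA, the only 1 of 7 mesophyll markers with a matched probe set, was 12.67 to 12.75 in WT and 11.87 to 12.23 in flu at 3 h. At 0 h it overlapped between the lines (12.79 to 12.91 in WT, 12.54 to 12.90 in flu). EXPA7, 1 of 8 root markers, was 2.86 to 2.91 in WT and 2.65 to 2.88 in flu. FAMA, 1 of 4 guard cell markers, was 7.09 to 7.38 against 7.45 to 7.67, and none of 4 epidermis and 2 phloem markers had a matched probe set. For actin, the control signal at the 3' end exceeded that at the 5' end, a gap that grows as RNA is degraded or copied incompletely, by 6.61 to 6.82 log2 units in the WT arrays at 3 h and by 6.93 to 6.98 in those of flu, while the gap for GAPDH overlapped (3.42 to 3.62 and 3.29 to 3.79). The actin gap at 3 h was 6.17 to 6.89 in mbs1-1, 6.73 to 6.83 in RNAi-MBS2/mbs1-1 and 6.54 to 7.02 in 35S:MBS1, so high values were not confined to flu. At 0 h it was 6.04 to 6.39 in WT and 6.13 to 6.56 in flu. The part of these markers in the levels of the 106 genes was not tested.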

How the data were processed

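RNA of 5 lines at 2 times was measured on 30 Affymetrix ATH1 arrays, and arrays were grouped by their titles. The deposited values are log2 signals that the authors made with RMA in affy, per the submitters' processing notes. The sources used here give no versions, nor whether all arrays were normalized together. Their number limits the precision. Of 22810 probe sets, 64 controls were left out and 22746 tested; by GEO's platform annotation 13513 had 1 gene, 503 several and 8730 none. Symbols were updated through the RefSeq table for TAIR10.1 (13436 probe sets matched). Of the 106 genes 98 carry a locus name only.

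Group means of all 30 arrays were fitted with limma 3.58.1 in R 4.3.3 (lmFit, eBayes, two-sided, Benjamini-Hochberg over 22746 probe sets, called at an adjusted p under 0.05). The 10 tested comparisons use no WT array and no flu array at 3 h, which the rule used; the shared estimate of the spread does include them. The 106 genes, the pathway lists and the rule for named genes were chosen with earlier results of these data known. Named were the 12 largest flu differences, in each comparison the called genes with the 3 highest and 3 lowest differences, the brightest and dimmest, those nearest the limits, and genes of role groups. The fit was tested on simulated data. The main fit did not pair arrays by replicate number. Of 60 same-numbered pairs 11 had deviations correlated over 0.1 (-0.30 to 0.37), which does not settle whether arrays of the same number belong together. Promoter motifs and sequences were not analysed here. Figures were drawn with matplotlib.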

Additional observations from a re-analysis of the deposited data

How the results depend on the processing

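The 106 genes rest on 3 arrays a group and on 3 groups: the rule gave 64 genes among probe sets with a mean of at least 5, and 91 to 127 without 1 array. Of 323 repeats of 22 named results, 267 kept their side of the threshold, 56 lost it (43 by leaving out 1 array) and 0 changed sign. Quantile normalization gave 13 genes higher and 16 lower in mbs1-1, and centring gave 13 and 15, against 15 and 10; it gave 1 gene lower in flu than in the MBS1 lines at 0 h. Fitting only the compared arrays gave 23 lower in mbs1-1, 21 higher and 7 lower in 35S:MBS1, 1 higher for loss minus overexpression in the change over time, and 3 higher in flu at 0 h. A mean of at least 5 gave 4 higher and 1 lower in flu at 0 h. Without the 2 brighter arrays loss minus overexpression at 3 h gave 0. Leaving out 1 array gave ranges of 1 to 3 lower in 35S:MBS1, 6 to 10 lower in mbs1-1, 4 to 15 lower for RNAi-MBS2/mbs1-1, 0 to 1 higher for loss minus overexpression at 3 h and at 0 h, and 5 to 8 higher and 0 to 2 lower in flu at 0 h. The lowest counts came without mbs1-1 at 0 h replicate 3 (6), RNAi-MBS2/mbs1-1 at 0 h replicate 2 (4) and flu at 0 h replicate 3 (5), and 7 of the 9 arrays at 3 h ended the call of loss minus overexpression when left out. With the replicate number as a block, 13 genes were higher and 3 lower in 35S:MBS1, 15 and 10 in mbs1-1, 10 and 12 for RNAi-MBS2/mbs1-1, 1 and 0 for loss minus overexpression at 3 h, and 7 and 0 for flu at 0 h. The cause was not tested. Low signals near the background limit the dim genes.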
